A study of Mus musculus with 47 samples.

Results

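Proneural transcription factors were followed through the neuronal differentiation of P19, an embryonal carcinoma cell line from the mouse, by SLAM-seq. Their genes were chosen by name, as 9 factors that drive or accompany the step from neural progenitor to neuron: Neurog1, Neurog2, Neurod1, Neurod4, Insm1, Myt1, Ebf1, Ebf3 and Prdm8. They are 9 of the 18854 genes with an annotated 3′ UTR in the deposited tables, and they appear there as 17 RefSeq transcripts with 9 different 3′ UTRs. Transcripts of one gene carried identical counts, so each gene was read from 1 transcript.

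Undifferentiated cells (D0, 24 libraries) were compared with cells 6 days into differentiation (D6, 23 libraries), which the methods describe as grown with 500 nM retinoic acid in a neuronal medium. All cells are labelled wild type and come from the one line, so replicates are not separate animals; the study calls them biological replicates, and the labels do not say whether they are separate cultures. In the catabolic assay RNA was labeled with 4-thiouridine (4sU) for 15 h and then chased with UTP, and in the anabolic assay uptake was followed from cells without 4sU. The 4sU dose was 20 µM at D0 and 500 µM at D6, so state and dose cannot be told apart in any labeling value set across the states. Hours are those of the study's methods (0, 3, 6 and 9); the sample labels give 0, 1, 3 and 9 for the same groups, and the effect on the decay values is given in the closing section. Each of the 16 groups had 3 libraries except the 6 h chase at D6, which had 2. In such bulk libraries fewer cells of a type and less RNA per cell cannot be told apart.

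Proneural proteins of the basic helix-loop-helix (bHLH) family pair with E proteins and bind E-box motifs, and they switch on neuronal genes while taking cells out of the cell cycle. Neurog1 and Neurog2 are the neurogenins that act early in committed progenitors, and Neurod1 and Neurod4 are related bHLH factors that follow them in differentiating neurons. Insm1 and Myt1 are zinc-finger factors of new neurons and neuroendocrine cells, Ebf1 and Ebf3 belong to the COE family of early B-cell factors that carry differentiation forward, and Prdm8 is a PR-domain zinc-finger repressor that partners the bHLH factor Bhlhe22. These last 5 genes are therefore targets or companions of proneural proteins rather than proneural genes in the strict sense.

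QuantSeq reads come from the 3′ end, so every value below was read from a 3′ UTR (mm10). The bHLH genes were read at chr13:56250492-56251197 on the minus strand (Neurog1), chr3:127634521-127635631 on the plus strand (Neurog2), chr2:79452641-79453963 on the minus strand (Neurod1) and chr10:130268152-130270410 on the minus strand (Neurod4). The other 3′ UTRs were chr2:146223832-146225020, plus strand (Insm1), chr2:181826045-181827775, plus strand (Myt1), chr11:45004749-45008096, plus strand (Ebf1), chr7:137193671-137196370, minus strand (Ebf3) and chr5:98186643-98187448, plus strand (Prdm8). T>C conversions can be seen at T positions alone, which made up from 25.9% of the 3′ UTR in Neurog1 to 35.3% in Insm1.

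Sequence of the last 500 bases of the 3′ UTR was found in GENCODE M21 transcripts (GRCm38) for 7 of the 9 genes, all but Ebf1 and Ebf3. The AU-rich heptamer TATTTAT, a letter sequence found in many short-lived mRNAs, was in 4 of these 7 windows and in 15.2% of 8706 windows of the same length over all genes. The Pumilio element TGTANATA was in the 3 other windows, those of Neurog1, Neurod1 and Prdm8, and in 13.9% of all windows. One site is printed for each gene because the results below turn on how fast these transcripts lost label; capitals mark the heptamer in the first 4 sequences and the Pumilio element in the last 3, all in the transcript's direction:
Neurog2 at chr3:127635476-127635505, plus strand: cgtgtttccttcTATTTATtttgaagaaaa
Neurod4 at chr10:130268364-130268393, minus strand: gagttacattatTATTTATgactttggaga
Insm1 at chr2:146224930-146224959, plus strand: ttaattgttagcTATTTATagaaagcttcg
Myt1 at chr2:181827328-181827357, plus strand: tatatattttgtTATTTATtcttttaataa
Neurog1 at chr13:56250558-56250587, minus strand: aaatgtattttTGTACATAaagaatttatt
Neurod1 at chr2:79453111-79453140, minus strand: TGTAAATAcatattataaataaatgccaac
Prdm8 at chr5:98187279-98187308, plus strand: gtcatcaatgaTGTAAATAtgtattccctt

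The shorter pentamer ATTTA, which lies inside the heptamer, was in all 7 windows and in 57.9% of all windows, and the poly(A) signal AATAAA was in all 7 and in 74.3%. Matches to the seed of the neural microRNAs let-7 (CTACCTC) and miR-9 (ACCAAAG) were in 0 of the 7 windows and in 3.72% and 4.37% of all windows. A match is a run of letters and not a shown binding site, and no match says only that these letters are not in the window. Member windows held from 55.8% (Neurog1) to 69.8% (Neurod4) A and T, against a median of 58% over all windows. All member windows but that of Neurog1 lay above this median, and AU-rich letters are found more readily in windows rich in A and T.

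The upstream side of the genes was read from RefSeq promoter windows (GRCm38.p6), from 250 bases before to 50 after a start site, of which 8 of the genes had 12. The E-box CAGATG, read on both strands, was in 1 of the 12 windows and in 17.2% of 32851 windows over all genes, and the E-box CAGCTG was in 2 of 12 and in 16.3%. These sites are shown because E-boxes are the letters that bHLH proteins read; capitals mark the E-box, and the first is the reverse complement of CAGATG:
Prdm8 at chr5:98180878-98180907, plus strand: ttgcatcgggtcCATCTGtacaactctctc
Prdm8 at chr5:98180640-98180669, plus strand: cccagagggaccCAGCTGcaggagaaggca
Neurod4 at chr10:130280117-130280146, minus strand: gacatagaaaacCAGCTGtggtggaggcac

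Libraries held from 1489528 to 11677046 reads in 3′ UTRs (median 5750402), and D6 libraries were shallower (median 3715703) than D0 libraries (median 7154292). Levels are given as CPM (a library's 3′ UTR reads scaled to a total of 1000000), which are not scaled by length and are compared here between states and not between genes. No library or gene stands for a known number of molecules, since the reads carry no molecular identifiers, and every interval or floor on counts covers counting error only. The labelled states matched the sums of their markers: 12 neuronal markers summed to 1074–1307 CPM at D0 and 11708–12961 CPM at D6 in cells without 4sU, and 11 of the 12 were called higher. The 9 pluripotency markers summed to 1220–1791 CPM at D0 and 8.05–30.7 CPM at D6, with 4 of 5 tested called lower. Lin28a gave 986 CPM of the mean D0 sum of 1445 CPM. Esrrb, at a mean of 11.1 CPM at D0 and 7.48 CPM at D6, was not called. Nanog, Zfp42, Klf4 and Dppa5a had 3 reads or fewer over the 3 D6 libraries, as Zfp42 and Dppa5a already did at D0.

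The first question was how far each factor's mRNA rose by D6. In cells without 4sU, edgeR's quasi-likelihood test called 8 of the 9 factors higher at D6 (Benjamini-Hochberg adjusted p of 0.05 or less), against a background of 7.74% of 16091 transcripts called higher, and none lower (background 5.4%). Of the 9, 7 passed the filter on low counts through their D6 libraries alone and so had to be higher there, while Insm1 and Ebf1 passed on the D0 libraries by themselves. The count is therefore a description, and the levels are given library by library.

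Neurog1 was near absent at D0, with 1, 1 and 2 reads in the 3 libraries without 4sU. At D6 the 3 libraries without 4sU held 89.6, 59.1 and 159.8 CPM. All 3 D6 libraries lay far above all 3 D0 libraries, and the log2 fold change was 8.83 ± 0.82 (SE, n = 3 against 3, adjusted p = 6.95e-05, edgeR). Over the whole series Neurog1 had 3 reads or fewer in each of the 24 D0 libraries, whereas its median at D6 was 59.1 CPM with a range of 0 to 159.8.

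Neurog2, by contrast, was already present in some D0 libraries. It held 92, 0 and 105 reads there, or 12.8, 0 and 15.4 CPM, and 89.4, 49.1 and 57.04 CPM at D6. The groups did not overlap, but D0 spread so widely that the log2 fold change of 2.85 ± 1.19 did not pass (adjusted p = 0.156). Without D0 replicate 56, the one with 0 reads, the change was 2.27 and passed (adjusted p = 0.0332). In the 15 h libraries the same gene had 3 reads in all over the 3 D0 libraries and 102, 107 and 109.6 CPM at D6 (8.49 ± 0.85, adjusted p = 7.89e-05), so the height of the rise depended on which D0 libraries served as the reference.

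Neurod1 rose from 0.279, 0 and 3.82 CPM at D0 to 72.8, 50.5 and 31.7 CPM at D6. The log2 fold change was 5.27 ± 1.39 (adjusted p = 0.0313), and it lost its call when D0 replicate 55 or any 1 of the D6 replicates 37, 38 and 39 was left out (adjusted p = 0.0769, 0.130, 0.0964 and 0.0654). Without D0 replicate 57, which held 26 of the 28 D0 reads, the change was 8.22 (adjusted p = 0.00355). After 15 h of 4sU the D6 libraries held 58.7, 59.1 and 0 CPM, and replicate 9 had 0 reads. With that library the change of 4.69 ± 1.81 was not called by edgeR (adjusted p = 0.113), and without it the change was 5.33 (adjusted p = 0.0218). With all libraries it was called by DESeq2 (4.75, adjusted p = 0.0156) and without the filter on low counts (4.72, adjusted p = 0.0420).

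Neurod4 had 8, 1 and 0 reads at D0 and 56.97, 43.9 and 105.8 CPM at D6. The increase of 7.23 ± 1.20 on the log2 scale was called (adjusted p = 0.00269) and remained called without any 1 library. After labeling, the 3 D0 libraries had 0 reads against 838 at D6, an at least 287-fold higher level when D0 is set to a floor of 3 reads over the group.

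**Figure D1:**
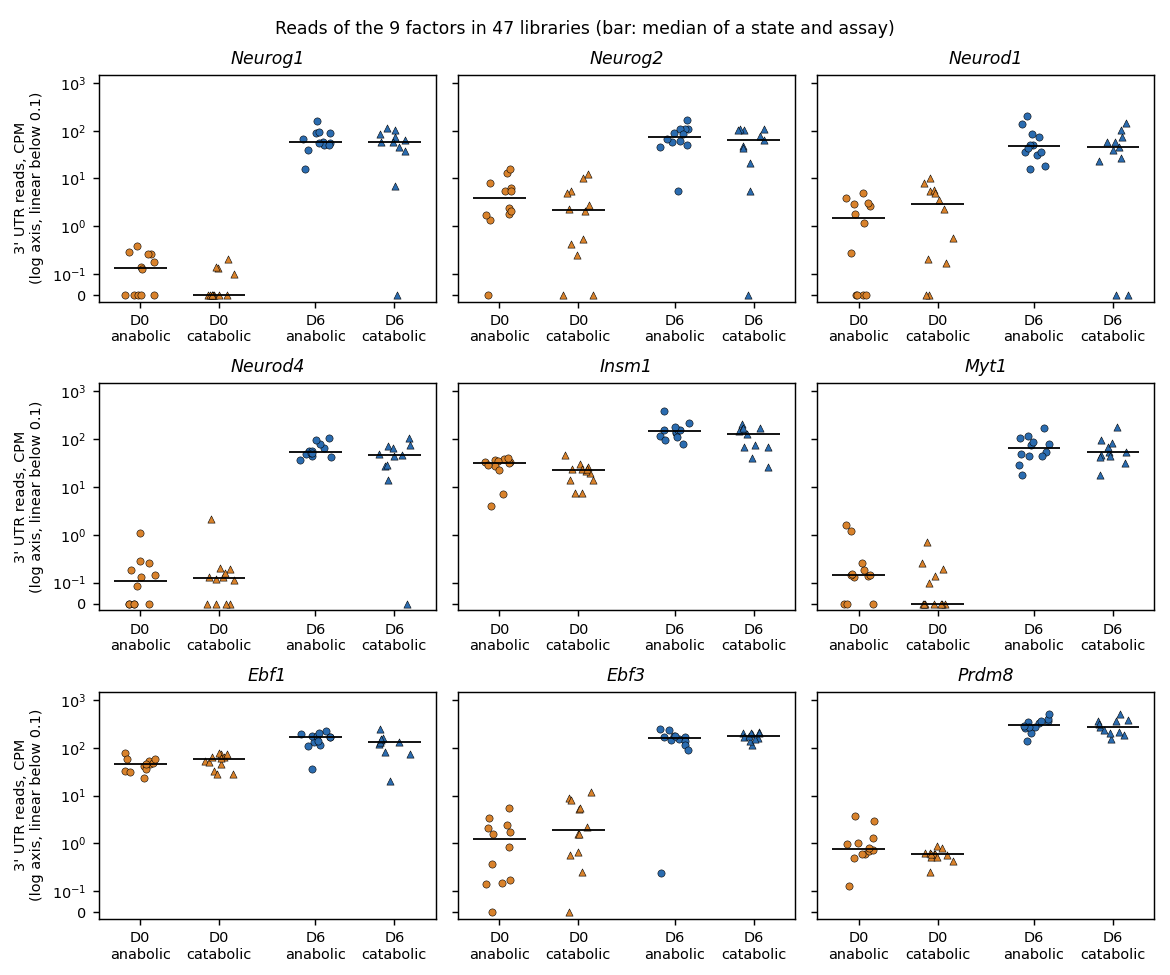
Reads of each factor in every library as CPM (log axis, linear below 0.1), by state (D0 orange, D6 blue) and assay (circles anabolic, triangles catabolic), with a bar at the median of each set. Every D6 library lies above every D0 library for Myt1 and Prdm8, while a few D6 libraries of the other genes fall among the D0 values.

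Insm1 was expressed before differentiation, in each of the 24 D0 libraries. Its D0 libraries held 32.9, 7.09 and 31.5 CPM and its D6 libraries 136, 78.6 and 143 CPM without 4sU. The rise of 2.36 ± 0.57 (adjusted p = 0.0214) lost its call without D6 replicate 37 or 39 (adjusted p = 0.0888 and 0.0914). After 15 h of 4sU the rise was 2.92 ± 0.52 (adjusted p = 0.00356), from 30.8, 7.32 and 26.4 to 212, 169 and 127 CPM, and held without any 1 library.

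Myt1 had 1 read in each D0 library without 4sU and 76.7, 86.6 and 55.2 CPM at D6. The pooled ratio was 449 with an exact 95% interval of 153 to 2180, and the fitted log2 change was 8.70 ± 0.89 (adjusted p = 0.000129). After labeling, 0 reads stood against 622, an at least 213-fold higher level on the same floor.

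The COE genes parted in their starting level. Ebf1 was present in every D0 library of the series, from 23.6 to 79.6 CPM, and rose without 4sU from 42.2, 23.6 and 32.4 to 167, 133 and 228 CPM (2.43 ± 0.38, adjusted p = 0.0019). After 15 h of 4sU it stood at 65.5, 27.8 and 31.9 CPM at D0 and 146, 131 and 80.9 CPM at D6. The groups still did not overlap, yet the difference of 1.42 ± 0.47 was not called by edgeR (adjusted p = 0.0679). It was called without D0 replicate 25 (1.92, adjusted p = 0.0341), by DESeq2 (adjusted p = 0.0308) and without the filter on low counts (adjusted p = 0.0432). Ebf3 had 1, 2 and 1 reads at D0 and 230.1, 167 and 179 CPM at D6 without 4sU (9.70 ± 0.59, adjusted p = 3.63e-06). In the labeled D0 libraries it had 1, 42 and 2 reads, and the change was accordingly lower, 5.52 ± 1.01 (adjusted p = 0.00402); without D0 replicate 26, which held the 42 reads, it was 8.63.

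Prdm8 was near absent at D0 and read deeply in each D6 library. It had 7, 7 and 4 reads at D0 without 4sU and 359, 393 and 332 CPM at D6 (8.56 ± 0.46, adjusted p = 1.62e-06), and after labeling the change was 8.97 ± 0.49 (adjusted p = 9.27e-07). Over all 47 libraries it ranged from 0.126 to 3.77 CPM at D0 and from 138.7 to 519.2 CPM at D6. Together with Myt1 it was one of 2 factors whose lowest D6 library exceeded the highest D0 library of the series, as did 2.31% of transcripts tested.

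After 15 h of 4sU, 7 of the 9 factors were called higher at D6 (background 7.33% of 15655 transcripts called higher), and none lower (background 7.55%); Neurod1 and Ebf1 did not pass. DESeq2 and the test without the filter each called 9 of 9 higher, beside 10.9% and 7.07% of all transcripts. Here too 7 of the 9 passed the filter through their D6 libraries alone, so the counts and the comparison of lowest and highest libraries are descriptions. All 9 had an unadjusted p under 0.05 and a positive estimate both here (background 27.4%) and without 4sU (background 25.7%). The lowest D6 library exceeded the highest D0 library for 9 of 9 factors without 4sU (background 19.2%) and for 8 of 9 after 15 h (background 20.7%). Both comparisons rest on other libraries, and each has its own D0 and D6 samples.

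**Figure D2:**
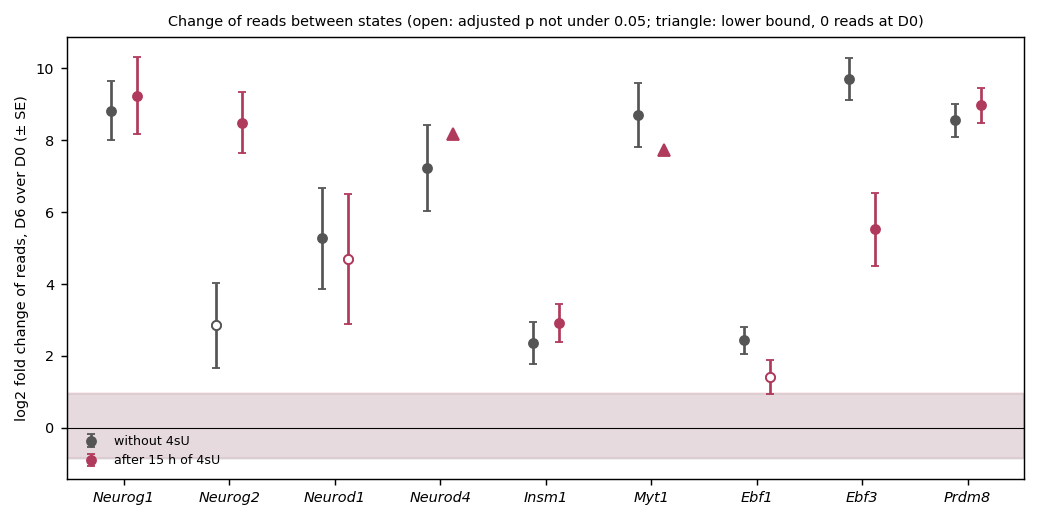
Log2 fold change of reads at D6 over D0 with its SE, without 4sU and after 15 h of 4sU. Open symbols mark differences that were not called (Neurog2 without 4sU, Neurod1 and Ebf1 after 15 h), triangles mark lower bounds (Neurod4 and Myt1 after 15 h), and the shaded bands span the quartiles of all transcripts tested.

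Whether labeling itself altered the mRNA levels was asked within D6. No factor was called between 15 h of 4sU and none, as 0.0512% of 15615 transcripts were, and 0 of the 9 had an unadjusted p under 0.05 (background 5.83%). The differences ran from −0.62 ± 0.32 for Ebf1 to 0.64 ± 0.38 for Neurog2 on the log2 scale. The Ebf1 difference was −0.40 without unlabeled replicate 39 or labeled replicate 9.

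The partners and opponents of the bHLH factors were examined as lists in the reads without 4sU, where the median of all transcripts tested was −0.04 and, as above, 7.74% were called higher and 5.4% lower (7.33% and 7.55% after 15 h of 4sU). Of 13 related bHLH genes with a transcript, 5 passed the filter and 4 of these rose, among them Nhlh1 and Bhlhe22. Nhlh1, a bHLH gene of young neurons, rose from 0.329 ± 0.290 to 188 ± 37.8 CPM (SD, n = 3 each; log2 change 9.13 ± 0.76). Bhlhe22, the partner of Prdm8, went from 2.38 ± 3.76 to 87.8 ± 40.2 CPM (5.07 ± 1.30). Of the E proteins, the general dimer partners, Tcf4 (2.07 ± 0.24) and Tcf12 (1.58 ± 0.29) rose and Tcf3 was not called.

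Among 9 tested antagonists, 1 rose and 1 fell. Hes5, a Notch-dependent repressor of proneural genes that is also a progenitor marker, rose from 0.804 ± 0.244 to 755 ± 123 CPM (9.83 ± 0.39). Id1, which sequesters E proteins, fell by 3.57 ± 0.81 on the log2 scale (adjusted p = 0.0147), while Id2 stood at −0.62 ± 0.26 and was not called (adjusted p = 0.156). After 15 h of 4sU Id2 was called lower (−0.87 ± 0.26, adjusted p = 0.0429) and Id4, another of these inhibitors, higher (2.72 ± 0.70, adjusted p = 0.0238). Of 10 tested genes described as proneural targets, 5 rose, among them Gadd45g (5.64 ± 0.89), a cell-cycle inhibitor, and Hes6 (1.37 ± 0.35), an inhibitor of Hes1. In the 15 h libraries 4 of the 10 were called, of which Gadd45g and Scrt1 were called in both comparisons. Hes6 (1.10 ± 0.41, adjusted p = 0.107), Cbfa2t3 and Btg2 were called without 4sU alone, and Scrt2 and Dll1 after 15 h alone; whether these changes differed between the comparisons was not tested. Of 5 tested relatives of Insm1, Myt1, the COE genes and Prdm8, Myt1l (7.06 ± 1.04), Prdm12 and St18 rose and Ebf2 did not pass (2.05 ± 1.30, adjusted p = 0.387), whereas after 15 h of 4sU Ebf2 was called (2.77 ± 0.62, adjusted p = 0.0121) and Prdm12 was not tested. As with the 9 factors, many of these genes passed the filter through D6 libraries alone: without 4sU these were 4 of 5 bHLH genes, 0 of 3 E proteins, 2 of 9 antagonists, 7 of 10 targets and 5 of 5 relatives. After 15 h of 4sU they were 4 of 4, 0 of 3, 1 of 7, 7 of 10 and 3 of 4 in the same order. All 4 targets called there were among them. The counts of risen genes in these lists, and their overlap between the 2 comparisons, are therefore descriptions.

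Other cell types were read beside these groups, against the same shares of all transcripts. Of 6 progenitor markers 2 rose without 4sU, Hes5 and Fabp7, both of which passed the filter through D6 libraries alone. After 15 h of 4sU 4 of the 6 rose, Sox1 by 3.74 ± 0.54 and Vim by 0.87 ± 0.19 beside Hes5 and Fabp7 (5.61 ± 1.07). Hes5 and Fabp7 again passed the filter through D6 libraries alone. Of the 5 astrocyte markers 1 had reads enough to be tested, Slc1a3, and was not called, and Gfap, Aqp4, Aldh1l1 and S100b had 3 reads or fewer over the 3 D6 libraries without 4sU. Neither of 2 tested oligodendrocyte markers nor the 1 tested endoderm marker was called, Mog and Sox10 being at 3 reads or fewer, and of 2 tested mesoderm markers Acta2 fell. After 15 h of 4sU both tested mesoderm markers, Acta2 and Col1a1, were called lower.

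The labeling question was asked first within D6. The T>C rate, the conversions divided by covered T positions, was called higher after 15 h of 4sU than without it for 7 of the 9 factors, near the background of 78.8% of 13450 transcripts. For Neurog1 the labeled libraries gave 4.30, 4.59 and 5.55% against 0, 0.0171 and 0.00645% without 4sU. Neurog2 gave 4.81, 2.45 and 4.08% against 0.303, 0 and 0.00920%. Its call was lost without D6 replicate 7 or 9 (adjusted p = 0.0727 and 0.0696), and its change of 5.13 became 9.02 without unlabeled replicate 37 (adjusted p = 0.00239), which left 1 unlabeled conversion.

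The 15 h rates of Neurod4 were 3.30, 5.86 and 6.99%, with an unlabeled background of 0.545, 1.07 and 0.229% that exceeded the whole-library value of 0.136–0.190%. Its change of 3.14 ± 0.94 was the lowest called among the factors. Rates of 5.76, 5.53 and 7.63% in Insm1, 5.88, 6.96 and 5.11% in Ebf3 and 4.81, 5.22 and 4.89% in Prdm8 were even across the 3 libraries. The Ebf3 change of 6.53 became 10.66 without unlabeled replicate 38 (adjusted p = 0.002), which left 2 unlabeled conversions. The rates compare with 4.24–4.87% over the whole libraries.

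In Myt1 and Ebf1 the lowest library was under 0.1 times the highest, as in 26.2% of all transcripts tested. Myt1 read 2.46, 5.08 and 0%, where the 0 was 0 conversions of 2168 covered T positions in replicate 9, which allows a rate of up to 0.138%, and without 4sU it had 0 conversions of 24291, which allows up to 0.0124%. Ebf1 read 3.75, 0.452 and 0.0501% against 0.00708, 0.0110 and 0.269%, and its change of 3.85 ± 1.93 was not called (adjusted p = 0.0884) unless unlabeled replicate 39 was left out (7.15, adjusted p = 0.0285), while without labeled replicate 7 it was 1.38 (adjusted p = 0.549). Neurod1 read 2.31 and 5.80% in 2 libraries and had no reads in the other, giving 4.42 ± 1.88 (adjusted p = 0.0537), and 8.43 (adjusted p = 0.0039) without unlabeled replicate 37. Of 26 pairs of a factor and a D6 15 h library with 100 reads or more, 2 had a rate under 0.1%, 1 each of Myt1 and Ebf1, against 2.15% of all such pairs. At 3 h of chase 4 of 24 did, against 8.62%, and at 9 h of uptake 0 of 23 did, against 8.55%.

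Between the states, label could be compared for few factors because most had next to no reads at D0. Insm1 had D6 rates of 5.76, 5.53 and 7.63% against 0, 0.201 and 0% at D0 after the same 15 h. For Insm1 the log2 change was 7.60 ± 0.92 (adjusted p = 0.000501, edgeR). Its D0 value was 2 conversions of 6964 covered T positions, both on 1 read of D0 replicate 26, and the pooled ratio was 211 with an exact 95% interval of 58.3 to 1742. Without that library no D0 conversion was left, and the fitted change of 12.90 (adjusted p = 0.00109) is no bound. Insm1 was the 1 factor called of 9, with a background of 28.7% of 13191 transcripts and a median change of 1.69 over them. However, Neurod4 and Myt1 had 0 reads in the D0 15 h libraries and Neurog1 had 1. These factors had no usable D0 rate, so the count cannot be measured against that background. In the D0 anabolic libraries Insm1 did take up label within 9 h, at 1.31, 1.96 and 1.27%, which is above all 3 of its 15 h libraries from the other assay. At 3 h of chase after the same labeling its D0 libraries read from 0.234 to 1.56% (121 conversions of 11770 covered T positions). These too lay above its D0 libraries at 0 h, so the size of the Insm1 change rests on those 3 libraries. Ebf1 gave 0.186, 0.255 and 3.11% at D0 and did not differ by test (0.28 ± 1.68, adjusted p = 0.899), with its sign turning in 3 of 6 fits that left out 1 library (−0.23 without D0 replicate 25, −0.20 without D0 replicate 26 and −2.20 without D6 replicate 7). Prdm8 gave 1.65 ± 0.58 (adjusted p = 0.0582) from 1, 3 and 3 D0 reads, and 2.08 (adjusted p = 0.0389) without D0 replicate 25.

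Uptake at D6 was barely visible at the 3 h point. There the whole-library rate was 0.213–0.241%, little above the unlabeled libraries, and most factor rates were low; Neurog1 read 0, 5.49 and 0.147%, Insm1 0.927, 0.707 and 0.139% and Prdm8 0, 0.432 and 0.533%. By 9 h Neurog1 had reached 3.75, 5.76 and 4.11%, Neurog2 6.94, 1.13 and 10.00%, Neurod1 5.71, 5.18 and 1.02% and Neurod4 3.19, 2.23 and 1.67%. Insm1 stood at 6.68, 1.43 and 4.86%, Myt1 at 2.43, 0.668 and 0.127%, Ebf1 at 1.29, 0.109 and 4.52%, Ebf3 at 3.39, 1.89 and 0.734% and Prdm8 at 4.63, 2.04 and 3.82%. The whole libraries read 2.98–4.14%. At the 6 h point between, all 3 libraries lay above every library without 4sU for 5 of the 9 factors (background 35.7% of transcripts).

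The 9 h rates of uptake were set against the 15 h rates of the other assay, and 0 factors and 0 of 12770 transcripts were called (543 transcripts, 4.25%, had an unadjusted p under 0.05). Ebf3 was the 1 factor under that unadjusted level, at −1.58 ± 0.59 (unadjusted p = 0.029, adjusted p = 1), its 9 h rates being lower in 3 of 3 libraries. Neurog2 gave 0.67 ± 0.74, and from 0.10 without uptake replicate 54 to 1.16 without uptake replicate 53. The same ratio did not differ by test between D6 and D0 for any factor or for any of 14048 transcripts (986, 7.02%, under an unadjusted p of 0.05). Insm1 came nearest (−6.06 ± 1.24, unadjusted p = 0.0002, adjusted p = 0.257), the same D0 libraries with almost no label entering that value, and −11.37 (adjusted p = 0.187) without D0 replicate 26, whereas Ebf1 gave 0.46 ± 2.07.

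**Figure D3:**
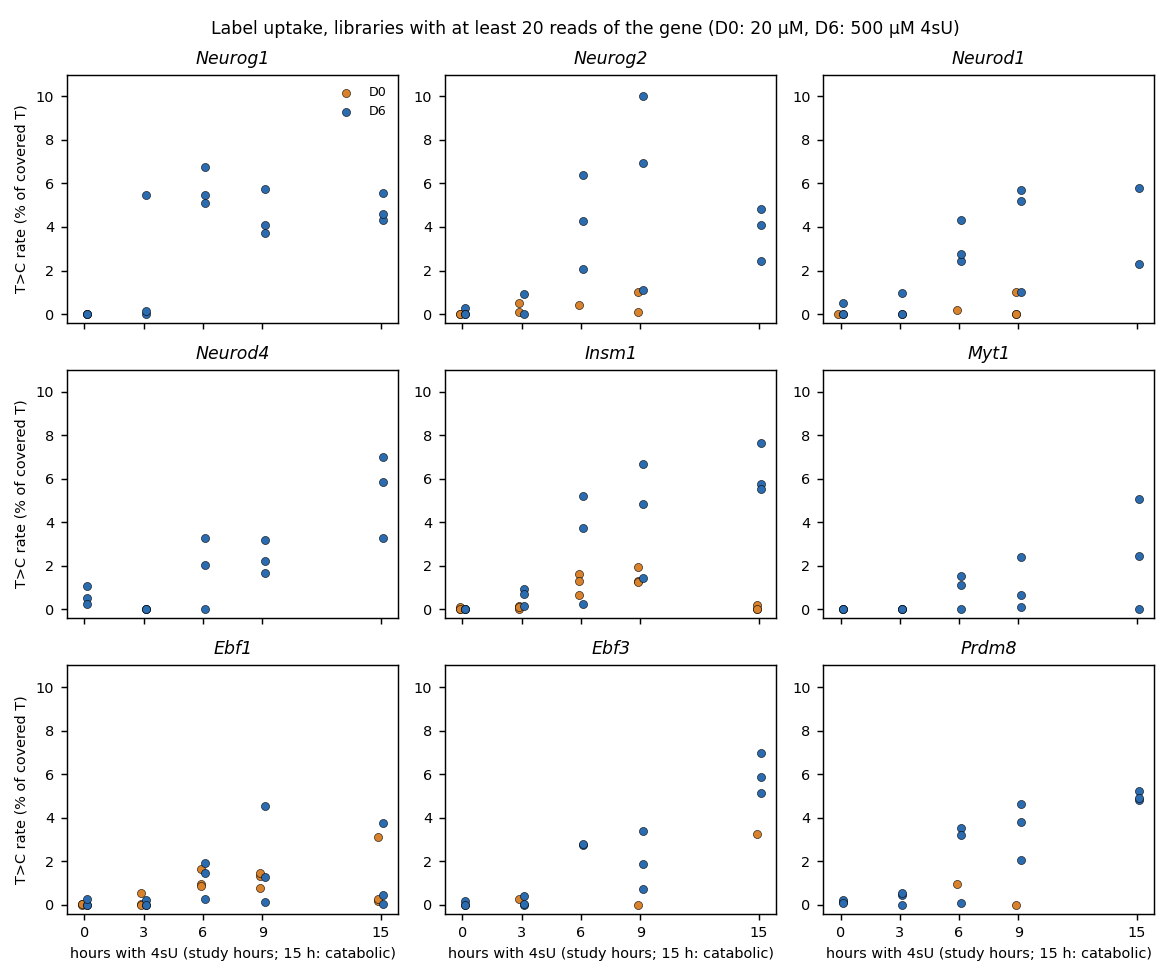
T>C rate (percent) against hours with 4sU for each factor at D0 (orange) and D6 (blue), in libraries with 20 reads or more; the 15 h point is from the catabolic assay. D6 rates run from 1.07% or less without 4sU to 2% or more in at least 1 library at 9 and at 15 h for each factor, while D0 points exist mainly for Insm1 and Ebf1 and stay below 4%.

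Decay was read from the loss of label during the UTP chase. After 9 h of chase at D6 the T>C rate was called lower than at the start for 5 of the 9 factors (background 36.5% of 12901 transcripts, all of them lower), with a median change of −3.06 on the log2 scale over all transcripts. The 5 were Neurog2, Neurod4, Insm1, Ebf3 and Prdm8.

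Neurog1 went from 4.30, 4.59 and 5.55% to 0.0472, 0.794 and 0.454%. Every chased library lay below every starting one, a pattern whose share among all transcripts was not counted. The change of −3.48 ± 1.26 narrowly missed the threshold (adjusted p = 0.0521) and passed without chase replicate 16 or 17 (adjusted p = 0.041 and 0.0308). Neurog2 went from 4.81, 2.45 and 4.08% to 0.569, 0.0710 and 0.332% (−3.50 ± 1.17, adjusted p = 0.0413). Its call was lost without any 1 of the starting replicates 7, 8 and 9 or without chase replicate 18 (adjusted p = 0.152, 0.0916, 0.102 and 0.0593).

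Neurod1 read 0.842, 0 and 0.630% after the chase, and its change from the 2 starting libraries was −2.99 ± 1.74 (adjusted p = 0.169). Neurod4 dropped to 0.392, 0.0342 and 0.0262% (−5.20 ± 1.46, adjusted p = 0.0238), a call lost without replicate 7, 8 or 9 (adjusted p = 0.0551, 0.0807 and 0.0729). Both bHLH genes thus had chase values below all of their starting ones, a pattern that was likewise not counted over all transcripts.

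Insm1 went to 0.284, 0.826 and 0.293% (−3.74 ± 0.66, adjusted p = 0.00333) and Ebf3 to 0.241, 0.109 and 0.0791% (−5.37 ± 0.84, adjusted p = 0.00173); both calls held without any 1 library. Prdm8 went to 0.460, 0.00718 and 0% (−4.96 ± 1.50, adjusted p = 0.0302). Its 0 was 0 conversions of 23896 covered positions in replicate 18, which allows up to 0.0126%, and the call was lost without starting replicate 7, 8 or 9 (adjusted p = 0.0527, 0.0611 and 0.0690), while without chase replicate 16 the change was −10.58 (adjusted p = 0.00208), with 1 conversion left in the chased libraries. Myt1 read 0.831, 0.934 and 0% and Ebf1 0.457, 0.295 and 0.104%, which overlapped their starting rates, and neither was called (adjusted p = 0.351 and 0.236). For Ebf1 the sign depended on 1 library, the change being 0.17 without replicate 7.

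The points in between were taken at 3 and 6 h of chase. At 3 h Insm1 still read 6.32, 5.41 and 5.83%, within the range of its starting rates in 2 of 3 libraries, Ebf3 read 4.86, 4.09 and 4.99% and Prdm8 4.69, 3.42 and 3.00%. All 3 libraries of Ebf3 and of Prdm8 lay below the lowest starting rates of these genes (5.11 and 4.81%). The share of all transcripts that did so was not counted. The whole-library rate was 4.15–5.19%, against 4.24–4.87% at the start. The bHLH genes scattered, from 0.114 to 12.9% in Neurod4, from 0.0138 to 4.65% in Neurod1 and from 0 to 4.52% in Neurog2, while Neurog1 read 3.56, 2.80 and 7.61%. At 3 h Myt1 read 2.20, 0 and 0% and Ebf1 3.60, 1.43 and 0%. At 6 h the whole libraries read 2.26 and 2.29%, and the 2 libraries gave 0 and 1.42% in Insm1, 0 and 1.40% in Ebf3, 0.0354 and 1.47% in Prdm8 and 1.05 and 1.49% in Ebf1. Myt1 had 0 conversions of 9664 covered T positions in both, which allows up to 0.0310%, against 0.831, 0.934 and 0% after 9 h. In the 1 library with reads of the bHLH genes, Neurog1 and Neurod4 had 0 conversions, Neurog2 read 0.0518% and Neurod1 0.907%.

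Over all 4 chase points the slope of the log2 rate was called negative for 4 of the 9 factors (background 22.5% of 12906 transcripts called lower), and the median slope over all transcripts was −0.36 per hour. Neurod4 had the steepest of these log2 slopes, −0.69 ± 0.24 per hour (adjusted p = 0.0414), then Ebf3 with −0.65 ± 0.17 (adjusted p = 0.0125), Prdm8 with −0.59 ± 0.15 (adjusted p = 0.012) and Insm1 with −0.48 ± 0.13 (adjusted p = 0.016). These 4 slopes lay within overlapping standard errors and were not tested against each other, and all 4 were steeper than the median transcript by less than 2 of their standard errors. Neurog1 (−0.45), Neurog2 (−0.41), Neurod1 (−0.34), Ebf1 (−0.25) and Myt1 (−0.25) were not called. The Ebf1 slope was −0.15 without starting replicate 7, and the Myt1 slope −0.13 without starting replicate 8.

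The calls of these slopes turned on the libraries of the last time point, and so did those over all transcripts. Without chase replicate 18 none of the 4 was called (adjusted p from 0.0523 to 0.118), although the slopes were still −0.61 (Neurod4), −0.45 (Insm1), −0.60 (Ebf3) and −0.51 (Prdm8) per hour. Without replicate 17 Insm1 alone was called, and without replicate 16 Ebf3 and Prdm8 were. Over all transcripts 330, 456 and 542 slopes were called without replicate 18, 17 or 16 (2.55, 3.50 and 4.23% of those tested), against 2910 with all libraries. Neurod4 also lost its call without starting replicate 8 or 9 or the 3 h replicate 10 (adjusted p = 0.0593, 0.0548 and 0.053). Replicate 14, the shallowest library, had 0 reads of Neurog1, Neurog2, Neurod1 and Neurod4, so the 6 h point of these genes was 1 library.

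**Figure D4:**
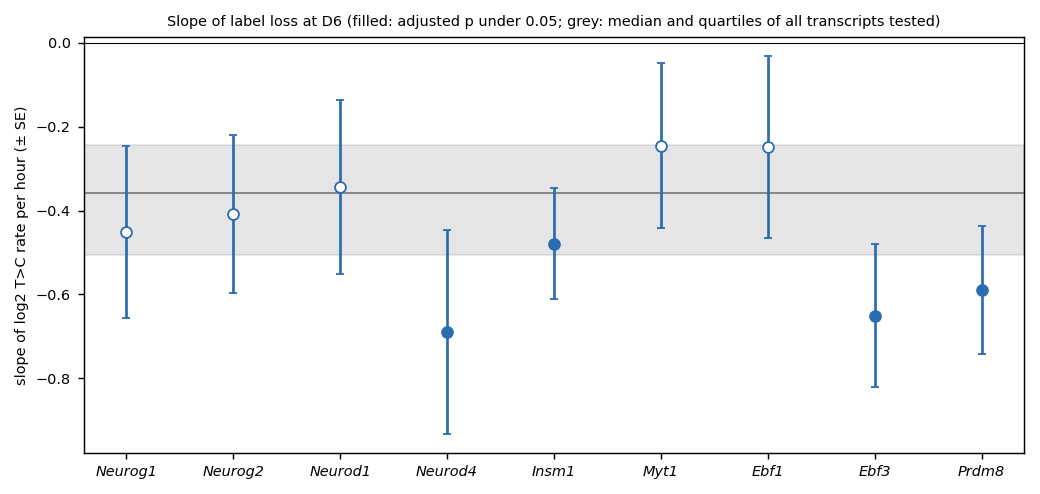
Slope of the log2 T>C rate per hour of chase with its SE for each factor at D6, filled where called, beside the median and quartiles of all transcripts tested (grey). The 4 called slopes run from −0.69 to −0.48 per hour, against a median of −0.36.

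Exponential decay fitted by least squares to the 11 D6 chase libraries gave a half-life that met the study's criterion of an R² over 0.6 for 3 of the 9 factors, beside 18.2% of 12906 transcripts. Insm1 had a half-life of 240 ± 63.3 min (SE, R² = 0.722), Ebf3 of 201 ± 42.2 min (R² = 0.818) and Prdm8 of 201 ± 39.6 min (R² = 0.832). The 2352 transcripts that met it had quartiles of 171 and 285 min, and these 3 lay between them. The values depend on the model and the hours: the log2 slopes above correspond to 2.09 h (Insm1), 1.54 h (Ebf3) and 1.70 h (Prdm8), against 3.99, 3.35 and 3.35 h in the exponential fit, which gave 120, 95.7 and 95.6 min with the hours of the sample labels. Neurod4, with the steepest log2 slope, had an exponential half-life of 288 ± 228 min (R² = 0.275), longer than those of the 3. The other 6 fits were looser, with R² from 0.087 for Ebf1 to 0.563 for Neurog2 and half-lives from 107 ± 77.4 min for Myt1 to 586 ± 699 min for Ebf1. Single libraries moved these looser values: Myt1 gave 11.4 min without 3 h replicate 10 and 242 min without starting replicate 8, Neurog2 34.9 min without replicate 10, Neurod1 367 min without replicate 8 and Neurod4 139 min without 3 h replicate 11. For Ebf1 the fit without starting replicate 7 turned to a rise (−348 min), and the other fits reached 792 min. Heptamer genes fell on both sides, Insm1 meeting the criterion and Neurog2, Neurod4 and Myt1 not, as did genes with the Pumilio element, of which Prdm8 met it. The criterion measures how closely the fit held and not how fast label was lost. Whether either motif goes with the speed of decay was not tested.

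**Figure D5:**
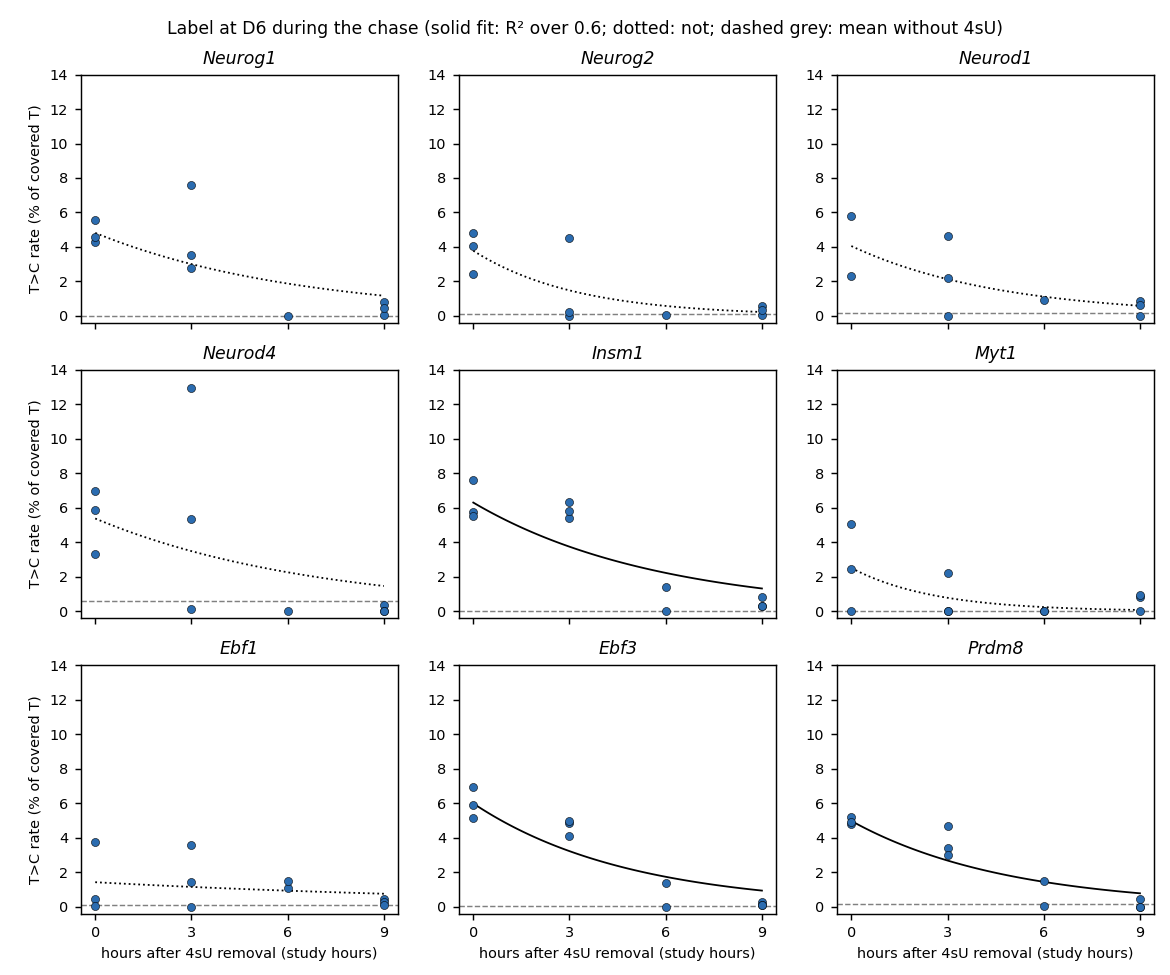
T>C rate (percent of covered T) at D6 against hours of chase for each factor, one point per library, with the exponential fit (solid where R² exceeded 0.6, for Insm1, Ebf3 and Prdm8, dotted otherwise) and the mean rate without 4sU (dashed grey). Points of the 3 h chase scatter widely for Neurog2, Neurod1, Neurod4, Myt1 and Ebf1.

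The decay slope at D6 was not called different from that at D0 for any factor, and it was for 2 of 14166 transcripts (0.0141%). For Neurog1 and Myt1 this says little, since no D0 chase library held more than 1 and 4 of their reads (SE 905 and 1.87 per hour). Unadjusted p-values under 0.05 were found for 3 of the 9 factors and for 6.1% of all transcripts. Those 3 were Neurod4 (−1.46 ± 0.47 per hour, unadjusted p = 0.0032, adjusted p = 0.429), Prdm8 (−0.58 ± 0.21, unadjusted p = 0.008, adjusted p = 0.604) and Ebf3 (−0.62 ± 0.26, unadjusted p = 0.02, adjusted p = 0.748). Their D0 slopes rested on few reads, no more than 15 a chase library for Neurod4, 6 for Prdm8 and 75 for Ebf3, and the Ebf3 difference was 0.03 without D0 replicate 36. Insm1 (−0.26 ± 0.24, and −0.41 to −0.16 with single libraries left out) and Ebf1 (0.26 ± 0.27) had at least 27 reads in every D0 library. They lay on either side of 0 by about 1 standard error. For Insm1, however, the mean D0 rate was 0.0671% at the start of the chase, from 2 conversions. It was 0.845% at 3 h, 0.217% at 6 h and 0.0817% at 9 h. Its D0 label was thus not highest at the start, and its D0 slope cannot be read as plain decay. Neurog2 (−0.08 ± 0.30) and Neurod1 (0.69 ± 0.37, unadjusted p = 0.067, adjusted p = 0.813) held up to 97 and 86 reads a D0 chase library, though 0 in some.

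The reads themselves changed less than the label over the chase. No factor was called between 9 h and the start (background 0.629% of 15112 transcripts), and 2 of the 9 had an unadjusted p under 0.05 (background 13.2%). Insm1 stood at 212, 169 and 127 CPM at the start and at 40.7, 69.96 and 26.7 CPM after 9 h (−1.78 ± 0.41, adjusted p = 0.0631), and without chase replicate 17 it was called (−2.16, adjusted p = 0.021). In that fit 203 transcripts (1.24%) were called, against 95 with all libraries and from 1 to 6 without any other library. DESeq2, which called 9.11% of all transcripts here, called both it and Prdm8 (−0.64 ± 0.25 in edgeR, adjusted p = 0.255). Prdm8 went from 355, 359.9 and 266 to 218, 151 and 204 CPM.

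The chase of the related genes was read against the same backgrounds, 36.5% for the loss of label and 22.5% for the slope. All 3 E proteins had a called loss of label after 9 h and a called slope, with Tcf4 at −0.38 ± 0.07 per hour. Of 7 tested antagonists 5 did in both, Hes5 at −0.55 ± 0.12 and Id2 at −0.42 ± 0.09. Of 10 tested targets 2 had a called loss, Gadd45g and Hes6, and 1 a called slope, Gadd45g at −0.49 ± 0.09. Of 3 tested relatives Myt1l (−0.74 ± 0.21) and Ebf2 (−1.13 ± 0.26) were called in both. Of 4 tested related bHLH genes 2 had a called loss and 1 a called slope, Nhlh1 being called in both.

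Across the 23 D6 libraries the reads of the 5 genes most like those of Prdm8, the factor with the most reads at D6, were Ciz1 (Pearson's r of log2 CPM plus 1, 0.83), Armcx3 (0.79), Jpt2 (0.78), Rpl15 (0.78) and Sord (0.76), of 8330 genes compared. The other factors' r with Prdm8 ran from −0.39 (Myt1) to 0.49 (Insm1). These are descriptions over libraries that share assays, chase points and depth, and no other factor was among the 5.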

How the data were processed

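Tables of 47 SLAM-seq libraries (QuantSeq 3′ ends, no molecular identifiers) were read. The authors mapped reads to mm10 and deposited, per 3′ UTR interval, raw counts of reads, T>C conversions and covered T positions made with SLAMdunk 0.3.3 (per the file headers); the intervals carry RefSeq names, whereas the methods name a GENCODE annotation. CPM used the library's summed reads. All 47 libraries were mapped to 16 groups by their titles.

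Reads were tested with edgeR 4.0.16 (R 4.3.3; TMM, filterByExpr, quasi-likelihood), and T>C conversions in the same model with the log of covered T as offset and a mean of at least 1000 covered T. P-values were Benjamini-Hochberg adjusted over all transcripts (threshold 0.05), and the SE is the log2 change divided by the root of F. With 3 libraries a group (2 in 1 group) p-values measure the spread between libraries of 1 cell line, which the study calls biological replicates. Half-lives came from least squares of an exponential (R² over 0.6, up to 5000 min). Counting intervals are exact at 95%, and the floor is 3 counts. The models were tested on simulated counts of well-covered transcripts, a setting that does not cover factors with few or no reads at D0.

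Named genes were the 9 members, the 2 genes of each list with the most reads and the 5 genes most like the member with the most reads; other list genes are named as called or near 0, and Id1 and single list genes outside this rule were chosen after their values were seen. Members and lists were chosen with earlier results of these data known. Alternatives were DESeq2 1.42.0, no filter, other coverage minimums, 1 transcript per cluster of 3′ UTRs, the labels' hours, the first and last hour alone, no R² minimum, and each library left out. Sites were read from GENCODE M21 transcripts and RefSeq promoter windows (GRCm38.p6), build GRCm38 being that of mm10. One list gene is not reported here.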

Additional observations from a re-analysis of the deposited data

Results flagged for a closer look

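The 6 h uptake libraries at D6 enter none of the tests of label above. For 5 of the 9 factors all 3 of them lay above every library without 4sU, as for 35.7% of 13450 transcripts, and Ebf1 did so narrowly (0.271 against 0.269%). The mean T>C rates there were 5.79% for Neurog1, 4.24% for Neurog2, 3.17% for Neurod1, 3.06% for Insm1 and 1.23% for Ebf1, against whole-library rates of 1.58–2.25%. The other 4 factors each had a library no higher than its highest library without 4sU.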

How the results depend on the processing

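The direction of each D6 against D0 read difference held for all 9 factors under DESeq2, without a filter on low counts, with 1 transcript per cluster of 3′ UTRs and without any 1 library. With any 1 library left out, the factors called numbered 0 to 1 for reads after 9 h of chase (0 with all libraries), 1 to 2 for label at D6 against D0 (1), 2 to 6 for the loss of label (5), 0 to 4 for the decay slope (4) and 3 to 5 for half-lives (3); over all transcripts the loss of label gave 1811 to 5224 calls (4714), the slope 330 to 4006 (2910) and the half-life criterion 1896 to 3609 (2352). Reads at D6 against D0 gave 6 to 9 factors (8) and 1253 to 2307 transcripts (2115) without 4sU. After 15 h of 4sU they gave 7 to 8 factors (7) and 1416 to 2257 transcripts (2329). Reads after 9 h of chase gave 1 to 203 transcripts (95), and label at D6 against D0 2516 to 3513 (3791). DESeq2 called 2 factors and the test without a filter 1 for reads after the chase, and both called 9 (7) for reads after 15 h of 4sU. At 5000 covered T positions 2 factors were called for label between states, beside 4260 of 6153 transcripts (69.2%, against 28.7%), and Neurod1 label against none (adjusted p = 0.0263) and the Neurog1 loss of label (adjusted p = 0.037) were called, beside 93.5% and 67.1%. Half-lives of 7 factors were kept from 0 and 9 h alone (59.3% of transcripts) and of 9 without an R² minimum (92.6%). Signs turned when 1 library was left out for the Ebf1 label between states (−2.20 to 2.69), its loss of label (−2.88 to 0.17), its uptake ratio between states (−1.94 to 2.93), its half-life (−348 to 792 min) and the Ebf3 slope between states (−1.10 to 0.0338); the cause was not tested. With the labels' hours the half-lives were 120 min (Insm1), 95.7 min (Ebf3) and 95.6 min (Prdm8), and from 0 and 9 h alone 144, 100.3 and 108 min. The Neurod4 slope lost its call at 300 covered T positions (adjusted p = 0.0562), and the Neurog2 slope gained one from 0 and 9 h alone (adjusted p = 0.0413). Of 607 single-factor values with a library left out, 555 kept their direction and call, 30 lost the call, 9 gained one, 8 changed sign and 5 half-lives moved by more than their SE.

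Over all transcripts DESeq2 called 3234 against 2115 for reads without 4sU, 264 against 8 for 15 h of 4sU and 1376 against 95 after the chase, where the test without a filter called 82 and 593. The labels' hours gave 5621 and the first and last hours 4714 called slopes, against 2910, and 108 and 35 slope differences, against 2. D0 label values rest on few reads of most factors, although D0 libraries were the deeper. No paired analysis was possible because each library carries its own number and no number is shared between groups.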
